A study of Mus musculus with 45 samples.

Results

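The macrophages of uninjured muscle were compared here as MHCII+ cells against MHCII- cells, split at the sort by surface major histocompatibility complex (MHC) class II. The comparison held 4 of the 45 arrays of the series, chosen as the samples titled as day 0 and DTR-, with 2 MHCII+ and 2 MHCII- arrays. All 4 came from male C57Bl6 mice of 10 weeks with the genotype Foxp3.DTR-, which means no diphtheria toxin receptor under the Foxp3 promoter, and with no injury. Cells were Ly6g- CD11b+ F4-80+ at the sort, went into TriZol, and their total RNA was read on Mouse Gene 1.0 ST arrays of Affymetrix. For comparison, MHCII+ and MHCII- macrophages of DTR- mice of 8 weeks were used at day 1 (2 and 2 arrays), day 4 (2 and 2 arrays) and day 7 (4 and 3 arrays) after cardiotoxin, a snake toxin that kills muscle fibres and starts regeneration. The titles of the day 1 and day 7 arrays also carry the tag 24hrDT, which the labels do not spell out and which the day 0 and day 4 titles lack; a treatment may therefore differ from day 0. The gates of days 1 and 4 also removed SiglecF+ cells, while those of day 0 and of this day 7 set list no such step. The labels do not say whether samples of 1 group came from separate mice, nor whether mice were pooled, so p-values measure the spread between samples.

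MHC class II molecules present peptides taken up from outside the cell to CD4+ T cells, and the transactivator CIITA switches their genes on. Resting muscle holds resident macrophages that clear dead cells and debris, recycle iron and lipid, and lie beside vessels and fibres, and it holds a smaller number of dendritic cells, which carry antigen to lymph nodes. Surface class II splits such tissue myeloid cells into subsets that differ in where they come from and how they are replaced.

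Levels are log2 of the deposited intensity, and differences are MHCII+ minus MHCII- on the log2 scale, so 1 unit is a 2-fold change. The 4 arrays had medians of 187.9 to 196.3 intensity units. Replicates correlated at 0.981 in MHCII+ and 0.982 in MHCII- cells over the genes tested, and arrays of different subsets at 0.916 to 0.941. MHCII- replicate 1 stood apart by transcripts of neutrophils, although the gate removed Ly6g+ cells. The summed intensity of 12 measured neutrophil markers was 1831 and 1706 in MHCII+ replicates 1 and 2, against 18040 and 3268 in MHCII- replicates 1 and 2. The first MHCII- value was the highest of all 45 arrays, whose median was 2582 and whose next highest value was 4908. Results are therefore also given without that array. The label check held on RNA. H2-Ab1, a class II beta chain, lay at 13.98 and 13.94 in MHCII+ cells, against 10.88 and 11.59 in MHCII- cells. Adgre1, which encodes the sorted marker F4-80, lay at 12.50 and 12.40 in MHCII+ cells and at 13.04 and 12.98 in MHCII- cells, and Csf1r, the receptor of the macrophage growth factor CSF1, lay at 12.93 and 12.86 in MHCII+ cells and at 13.28 and 13.30 in MHCII- cells.

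Of 11074 genes tested, 2104 passed at an adjusted p under 0.05 (19.0%; limma with Benjamini-Hochberg adjustment), with 935 higher (8.44%) and 1169 lower (10.6%) in MHCII+ cells. The median difference over all genes tested was -0.02. At 2-fold or more, 246 genes were higher and 211 lower, and at 4-fold or more 66 were higher and 21 lower. Without MHCII- replicate 1, 604 genes passed as higher (5.45%) and 739 as lower (6.67%). In all, 1343 genes passed without that array, 947 without MHCII+ replicate 2, 1197 without MHCII- replicate 2 and 1845 without MHCII+ replicate 1. Of the 2104 genes, 726 passed in each of these 4 fits, 391 higher and 335 lower. In these bulk samples, fewer cells of a type and less RNA per cell cannot be told apart.

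**Figure D1:**
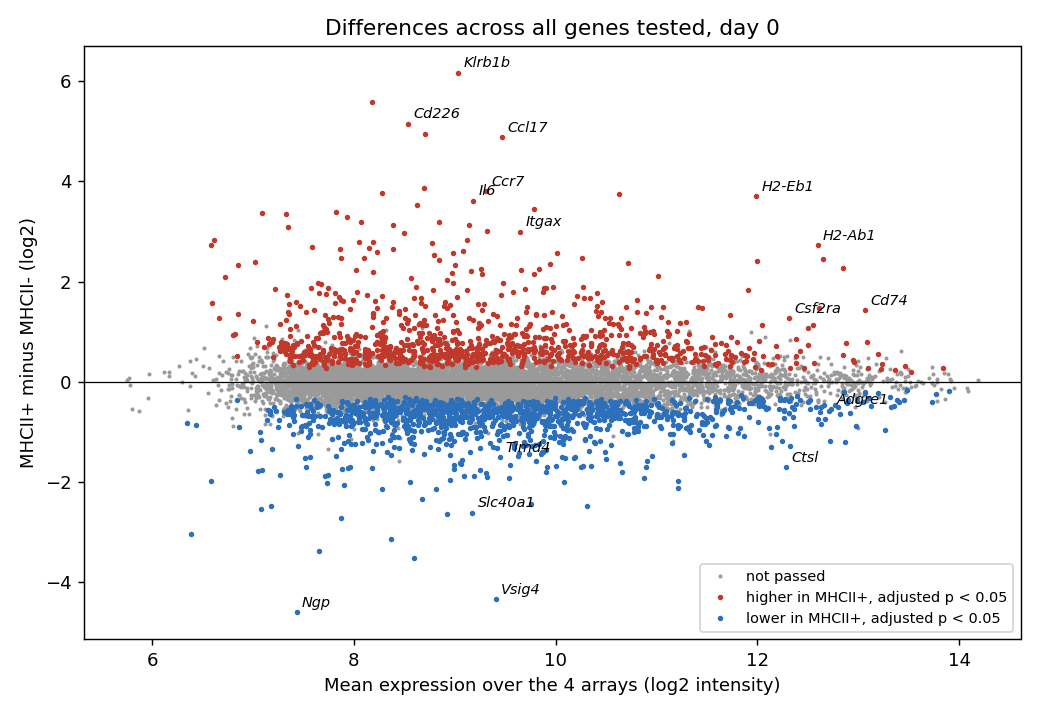
Difference between the subsets (MHCII+ minus MHCII-, log2) of each gene tested against its mean level over the 4 day 0 arrays (log2 intensity). Red points (935) passed as higher in MHCII+ cells, blue points (1169) passed as lower, and grey points did not pass. The upper edge holds Klrb1b, Cd226 and Ccl17, and the lower edge Vsig4 and the neutrophil gene Ngp.

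The class II genes themselves came first, since the sort used their protein; their differences check the sort more than they inform on the cells. H2-Eb1, a beta chain, had 13.82 and 13.86 in MHCII+ cells, against 9.82 and 10.45 in MHCII- cells. The difference was 3.70 ± 0.24 (SE) on the log2 scale (adjusted p = 1.26e-13). H2-Aa, an alpha chain, had 13.86 and 13.89 in MHCII+ cells and 11.03 and 11.83 in MHCII- cells, a difference of 2.45 ± 0.22 (adjusted p = 3.87e-10). The groups did not overlap for either chain, yet MHCII- cells of resting muscle were not low in class II RNA. Cd74, the invariant chain that escorts class II, lay at 13.75 and 13.80 in MHCII+ cells and at 12.12 and 12.57 in MHCII- cells. Ciita, the transactivator, had 10.91 and 10.75 in MHCII+ cells, against 7.90 and 7.71 in MHCII- cells, which is 8.10-fold higher (3.02 ± 0.21, adjusted p = 3.63e-13). H2-DMa, a chain of the peptide exchanger, was higher by 2.40 ± 0.19, and H2-Ob, a chain of its inhibitor, by 2.43 ± 0.15 (adjusted p = 1.37e-11 and 3.99e-14). Of 11 members of the class II list that were tested, 9 were higher and 1 lower (median 2.43). The lower gene was Ctss, the protease that trims the invariant chain, with 12.64 and 12.35 in MHCII+ cells and 13.18 and 13.12 in MHCII- cells (difference -0.66 ± 0.14, adjusted p = 0.00101). Its call ended without MHCII+ replicate 2. In the class I list 0 of 9 tested members passed with all arrays, with a median of -0.01. The median was -0.01 without MHCII- replicate 1 too. H2-K1, H2-D1 and H2-T23 of that list had no measured value here, so class I as a whole was not covered. Outside the list, H2-K2 and H2-Q4 passed, with calls that leaned on single arrays.

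Class II promoters share an arrangement known as the X and Y boxes, bound by RFX and NF-Y proteins on which CIITA sits, and 2 promoters are shown for that reason. They are RefSeq sequence on GRCm38.p6, from 250 bases before to 50 after the start of the gene, read 5′ to 3′ on the strand of the gene. Capitals mark matches to CTNGCAAC, a core of the X box, and to GATTGG, the Y box, on either strand. H2-Aa lies at chr17:34287774-34288073 on the minus strand, and H2-Eb1 at chr17:34305617-34305916 on the plus strand.
H2-Aa: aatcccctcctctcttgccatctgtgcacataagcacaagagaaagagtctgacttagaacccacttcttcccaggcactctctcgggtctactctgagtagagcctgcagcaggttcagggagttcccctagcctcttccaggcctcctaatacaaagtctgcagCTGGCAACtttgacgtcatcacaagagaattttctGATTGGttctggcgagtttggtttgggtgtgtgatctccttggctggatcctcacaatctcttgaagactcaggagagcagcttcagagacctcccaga
H2-Eb1: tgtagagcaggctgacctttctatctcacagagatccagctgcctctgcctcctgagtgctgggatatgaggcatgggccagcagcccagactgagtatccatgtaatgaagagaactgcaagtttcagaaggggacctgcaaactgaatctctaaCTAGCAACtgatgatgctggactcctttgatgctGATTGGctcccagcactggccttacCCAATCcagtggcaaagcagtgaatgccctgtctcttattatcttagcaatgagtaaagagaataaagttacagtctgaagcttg
H2-Eb1 holds a second Y box match that runs on the other strand. Of 27025 mouse genes with a promoter sequence, 3.97% held the first motif, 18.22% the second and 0.66% both. Among the 8 tested class II members with a promoter in the table, 4 held both motifs, and these were H2-Aa, H2-Eb1, H2-Eb2 and H2-Ob. Each of the 4 was among the 6 of these 8 members that were higher in MHCII+ cells. A match is a description of letters and not a measured binding site.

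The genes with the largest differences included receptors better known from natural killer (NK) cells. Klrb1b, an inhibitory lectin-like receptor, had 12.02 and 12.22 in MHCII+ cells, against 5.96 and 5.94 in MHCII- cells. The difference was 6.17 ± 0.21 (adjusted p = 9.01e-21). Klri1, a lectin-like receptor of the same gene complex, had 11.11 and 10.84 in MHCII+ cells and 5.27 and 5.51 in MHCII- cells (5.59 ± 0.24, adjusted p = 4.67e-18). Cd226, an activating adhesion receptor, had 10.91 and 11.32 in MHCII+ cells and 5.79 and 6.13 in MHCII- cells (5.15 ± 0.36, adjusted p = 6.97e-13). In each of the 3 genes both MHCII- arrays lay below the filter level of 7.57 and both MHCII+ arrays far above it. A gene whose mean in one subset lies below this level entered the test through another group. The lower level is then not shown to be above background, so no fold is given for such genes, and their differences are those of the deposited values. Klrd1, which encodes CD94, followed with 8.35 and 7.55 in MHCII+ cells and 5.31 and 5.11 in MHCII- cells (2.74 ± 0.31, adjusted p = 3.90e-08). Klrk1, which encodes NKG2D, and Klrb1a were looked up after values had been seen. Klrk1 had 9.04 and 8.94 in MHCII+ cells against 5.64 and 5.67 in MHCII- cells (3.34 ± 0.29), and Klrb1a had 7.83 and 8.24 in MHCII+ cells and 5.22 and 5.16 in MHCII- cells (2.84 ± 0.30). Cd2, an adhesion receptor shared by T and NK cells, had 11.38 and 11.62 in MHCII+ cells and 8.10 and 8.03 in MHCII- cells (3.44 ± 0.25, adjusted p = 2.07e-12).

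Defining markers of NK and T cells did not move with these receptors. Ncr1, the NK receptor NKp46, lay at 5.52 and 5.83 in MHCII+ cells and at 5.14 and 5.65 in MHCII- cells, below the filter. Klrb1c, Gzma, Nkg7, Eomes, Cd3d, Cd3g and Cd8a lay below it too, with Gzma, a granzyme, at 5.21 and 5.38 in MHCII+ cells and 5.07 and 5.07 in MHCII- cells. Of the 4 tested members of the T and NK list, Klrd1 alone passed (median 0.11). Cd3e had a difference of 0.17, Cd4 of 0.04 and Il7r of -0.26. The summed list was 3309 and 3382 in MHCII+ cells and 2944 and 4005 in MHCII- cells, so the groups overlapped. Cross-hybridization between close members of this receptor family was not tested.

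**Figure D2:**
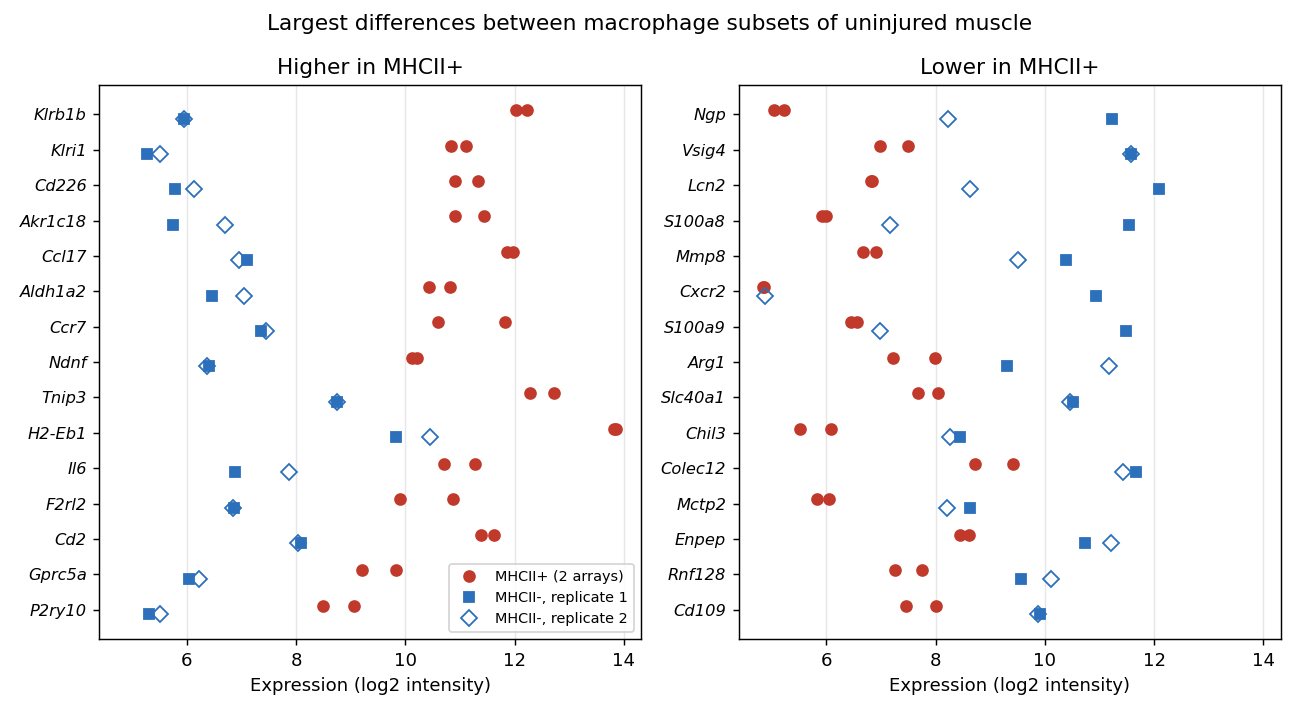
Level (log2 intensity) in each of the 4 day 0 arrays for the 15 genes with the largest differences in each direction. MHCII+ arrays are red dots above, MHCII- replicate 1 a filled blue square and MHCII- replicate 2 an open blue diamond below. The genes were picked for no overlap, so in the left panel both MHCII- arrays lie below both MHCII+ arrays. In the right panel MHCII- replicate 1 stands far above replicate 2 for S100a8, Cxcr2 and S100a9, while Vsig4 has both together.

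Other genes of this leading group belong to steroid and retinoid metabolism, adhesion and signalling. Akr1c18, a steroid dehydrogenase that inactivates progesterone, had 10.91 and 11.44 in MHCII+ cells, against 5.75 and 6.71 in MHCII- cells. The difference was 4.95 ± 0.45 (adjusted p = 3.31e-10), with both MHCII- arrays below the filter level. Aldh1a2, an enzyme that makes retinoic acid, had 10.43 and 10.82 in MHCII+ cells and 6.46 and 7.05 in MHCII- cells (3.87 ± 0.33, adjusted p = 9.12e-11). Gprc5a, an orphan receptor first described as induced by retinoic acid, had 9.20 and 9.83 in MHCII+ cells and 6.05 and 6.22 in MHCII- cells (3.38 ± 0.27). Tnip3, which encodes an inhibitor of nuclear factor kappa B (NF-kB) signalling, had 12.29 and 12.72 in MHCII+ cells and 8.76 and 8.74 in MHCII- cells (3.75 ± 0.28). The thrombin receptor family gene F2rl2 was higher by 3.52 ± 0.23, the secreted neurotrophic factor gene Ndnf by 3.77 ± 0.25 and P2ry10, a lysophospholipid receptor gene, by 3.37 ± 0.29. Lack of overlap between the subsets was part of the rule that picked these 7 genes, so it is no further support. With no overlap, leaving out any 1 array could not change the sign of these 7 differences, so their kept sign is no support either.

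Genes of dendritic cells were higher as a group. Of 11 tested members of that list 9 were higher and 0 lower, with a median of 1.48 and with 8 or 9 higher in each fit that left out 1 array. Ccr7, the receptor that guides cells to lymph nodes, had 11.82 and 10.60 in MHCII+ cells, against 7.35 and 7.45 in MHCII- cells. The difference was 3.81 ± 0.42 (adjusted p = 1.91e-08), with both MHCII- arrays below the filter level. Itgax, which encodes CD11c, had 11.08 and 11.20 in MHCII+ cells and 8.08 and 8.22 in MHCII- cells (2.99 ± 0.18, adjusted p = 3.71e-14). Flt3, the growth factor receptor of dendritic cell precursors, had 8.65 and 8.60 in MHCII+ cells and 6.57 and 6.76 in MHCII- cells (1.96 ± 0.19, adjusted p = 1.39e-09). Dpp4, a peptidase of conventional dendritic cells, was higher by 2.65 ± 0.25, Clec9a, a receptor for dead cells, by 1.56 ± 0.22, and Cd7 by 0.99 ± 0.19. Other defining genes did not pass or stayed low. Clec10a, a lectin, was the only tested member with a difference below 0 (-0.30), and it did not pass. Zbtb46, a transcription factor of conventional dendritic cells, had 7.84 and 8.07 in MHCII+ cells and 7.66 and 7.73 in MHCII- cells (0.26 ± 0.15, adjusted p = 0.260). Xcr1, Itgae, Btla and Kit lay below the filter, with Xcr1 at 6.95 and 6.57 in MHCII+ cells and 6.36 and 6.48 in MHCII- cells. The summed list was 23770 and 21040 in MHCII+ cells, against 9292 and 10420 in MHCII- cells. A part of dendritic cells in the other differences was not tested.

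Chemokine genes were called in both directions, where 8.44% of all genes were higher and 10.6% lower. Ccl17, a ligand of CCR4, had 11.96 and 11.85 in MHCII+ cells, against 7.10 and 6.95 in MHCII- cells (4.88 ± 0.30, adjusted p = 3.83e-14). Ccl22, the other CCR4 ligand, had 9.75 and 9.58 in MHCII+ cells and 6.38 and 6.58 in MHCII- cells (3.19 ± 0.22, adjusted p = 7.87e-13). Ccl5, which attracts T cells and monocytes, had 10.91 and 9.78 in MHCII+ cells and 8.35 and 8.02 in MHCII- cells (2.16 ± 0.30). Of 13 CC chemokines tested, 3 were higher and 1 lower; the lower one, Ccl8, had -0.84 ± 0.24 and did not pass without MHCII+ replicate 2 or MHCII- replicate 1. Cxcl9, a ligand of CXCR3, had 10.26 and 10.61 in MHCII+ cells and 7.54 and 6.96 in MHCII- cells (3.18 ± 0.43, adjusted p = 1.11e-06). Cxcl10, a second CXCR3 ligand, had 11.78 and 12.34 in MHCII+ cells and 10.69 and 9.23 in MHCII- cells (2.10 ± 0.37), and 1.37 without MHCII- replicate 2. Ppbp, a platelet-type chemokine, was lower, with 9.91 and 10.17 in MHCII+ cells and 11.98 and 11.50 in MHCII- cells (-1.70 ± 0.34, adjusted p = 3.57e-04). In the CXC list 3 of 12 were higher and 2 lower, the second being Pf4 (-0.88 ± 0.14).

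Il6, an inflammatory cytokine, had 10.70 and 11.28 in MHCII+ cells, against 6.89 and 7.87 in MHCII- cells (3.61 ± 0.47, adjusted p = 5.41e-07). Of 15 macrophage cytokines tested, 4 were higher and 0 lower (median 0.28), the others being Tnfsf13b (0.73 ± 0.17), Il12b (0.69 ± 0.16) and Il1b (0.74 ± 0.19). Over all genes tested, 8.44% were higher and 10.6% lower. Il1b had 12.80 and 12.93 in MHCII+ cells and 12.25 and 12.01 in MHCII- cells, and its call ended without MHCII+ replicate 2 or MHCII- replicate 2; that of Il12b ended without MHCII- replicate 2. Among 11 chemokine receptors, Ccr7 and Ccr2 were higher and 4 were lower; the count was 1 higher and 2 or 3 lower in each fit that left out 1 array. Ccr2, the receptor that brings in monocytes, had 12.82 and 12.40 in MHCII+ cells and 11.66 and 11.29 in MHCII- cells. Its difference of 1.13 ± 0.37 passed with all arrays (adjusted p = 0.0272) and failed without any 1 of the 4, with adjusted p of 0.0532 to 0.198.

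Members of the cytokine receptor list are given beside the 8.44% of all genes that were higher and the 10.6% that were lower. Single members differed in either direction. Csf2ra, the alpha chain of the GM-CSF receptor, had 12.76 and 13.12 in MHCII+ cells, against 11.68 and 11.67 in MHCII- cells (1.26 ± 0.15, adjusted p = 7.31e-08). Tgfbr1, the signalling receptor of TGF-beta, had 9.25 and 9.10 in MHCII+ cells and 10.63 and 10.53 in MHCII- cells (-1.40 ± 0.18, adjusted p = 6.35e-07). Csf1r, the receptor for the main survival factor of macrophages, had 12.93 and 12.86 in MHCII+ cells and 13.28 and 13.30 in MHCII- cells and did not pass (-0.40 ± 0.18, adjusted p = 0.115). In the whole list of cytokine receptors 2 of 20 were higher and 4 lower, with 2 or 3 lower in each fit that left out 1 array. One of the 4, Csf3r, is also a neutrophil gene, and its difference of -1.38 became -0.50 without MHCII- replicate 1, where it did not pass, and -2.25 without MHCII- replicate 2.

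Transcription factors also held genes called in either direction, where 8.44% of all genes were higher and 10.6% lower. Of 25 tested, 10 were higher and 3 lower (median 0.17). Bhlhe40, a basic helix-loop-helix repressor, had 11.18 and 11.17 in MHCII+ cells, against 9.56 and 9.75 in MHCII- cells (1.52 ± 0.27, adjusted p = 8.89e-05). Its close relative Bhlhe41 went the other way, with 6.48 and 6.21 in MHCII+ cells and 8.20 and 8.20 in MHCII- cells (-1.86 ± 0.33, adjusted p = 8.16e-05). Tfec, a myeloid member of the MiT/TFE family, had 9.34 and 8.80 in MHCII+ cells and 10.79 and 10.75 in MHCII- cells (-1.70 ± 0.17, adjusted p = 2.83e-09). Irf5, a factor of inflammatory cytokine genes, was higher by 0.67 ± 0.12 and Id2, needed by several dendritic cell types, by 0.62 ± 0.11. The count of higher factors was 5 without MHCII+ replicate 2 or MHCII- replicate 2 and 6 without MHCII+ replicate 1.

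Receptors of resident tissue macrophages were lower in MHCII+ cells. Of 18 tested members 11 were lower and 0 higher, each of the 18 had a difference below 0, and the median was -0.61. The count was 6 without MHCII+ replicate 2, 7 without MHCII- replicate 1, and 8 or 9 without either of the others. Vsig4, a complement receptor of resident macrophages, had 7.49 and 6.98 in MHCII+ cells, against 11.58 and 11.57 in MHCII- cells. The difference was -4.34 ± 0.31 (adjusted p = 1.74e-12), both MHCII+ arrays lay below the filter level, and this gene was not among those that lean on MHCII- replicate 1. Timd4, a receptor for phosphatidylserine on dying cells, had 8.71 and 8.68 in MHCII+ cells and 10.09 and 10.32 in MHCII- cells (-1.51 ± 0.17, adjusted p = 3.71e-08). Cd5l, a secreted scavenger protein, had 7.03 and 6.72 in MHCII+ cells and 9.45 and 8.41 in MHCII- cells (-2.06 ± 0.29, adjusted p = 2.28e-06). Fcna, a ficolin, was lower by 1.54 in MHCII+ cells (-1.54 ± 0.27), and Stab1, a scavenger receptor, had -1.28 ± 0.26. Lyve1, which marks macrophages beside vessels, had 12.66 and 12.40 in MHCII+ cells and 13.50 and 13.41 in MHCII- cells and did not pass (-0.92 ± 0.41, adjusted p = 0.119); it was singled out after its values were seen.

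Uptake receptors followed the resident genes. In the scavenger and efferocytosis list 10 of 20 tested were lower and 1 higher (median -0.67). Colec12, a scavenger receptor of the collectin type, had 9.41 and 8.72 in MHCII+ cells, against 11.68 and 11.44 in MHCII- cells (-2.49 ± 0.23, adjusted p = 6.22e-10). Msr1, a receptor for modified lipoprotein, had 11.49 and 11.09 in MHCII+ cells and 12.28 and 12.35 in MHCII- cells (-1.03 ± 0.10, adjusted p = 1.99e-09). Mertk, a receptor kinase for dying cells, had 10.83 and 10.82 in MHCII+ cells and 11.76 and 11.91 in MHCII- cells (-1.01 ± 0.14, adjusted p = 2.68e-06). Its relative Axl was the member that was higher, with 11.78 and 11.60 in MHCII+ cells and 10.86 and 9.94 in MHCII- cells (1.29 ± 0.27, adjusted p = 6.99e-04), a call that ended without MHCII- replicate 2. Complement genes gave 7 lower and 1 higher of 15 (median -0.42); the higher one was Itgax. C6, a component of the membrane attack complex, had 7.31 and 6.90 in MHCII+ cells and 8.35 and 9.28 in MHCII- cells (-1.71 ± 0.26, adjusted p = 5.81e-06). C4b had 10.94 and 10.84 in MHCII+ cells and 11.97 and 12.32 in MHCII- cells (-1.26 ± 0.28).

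**Figure D3:**
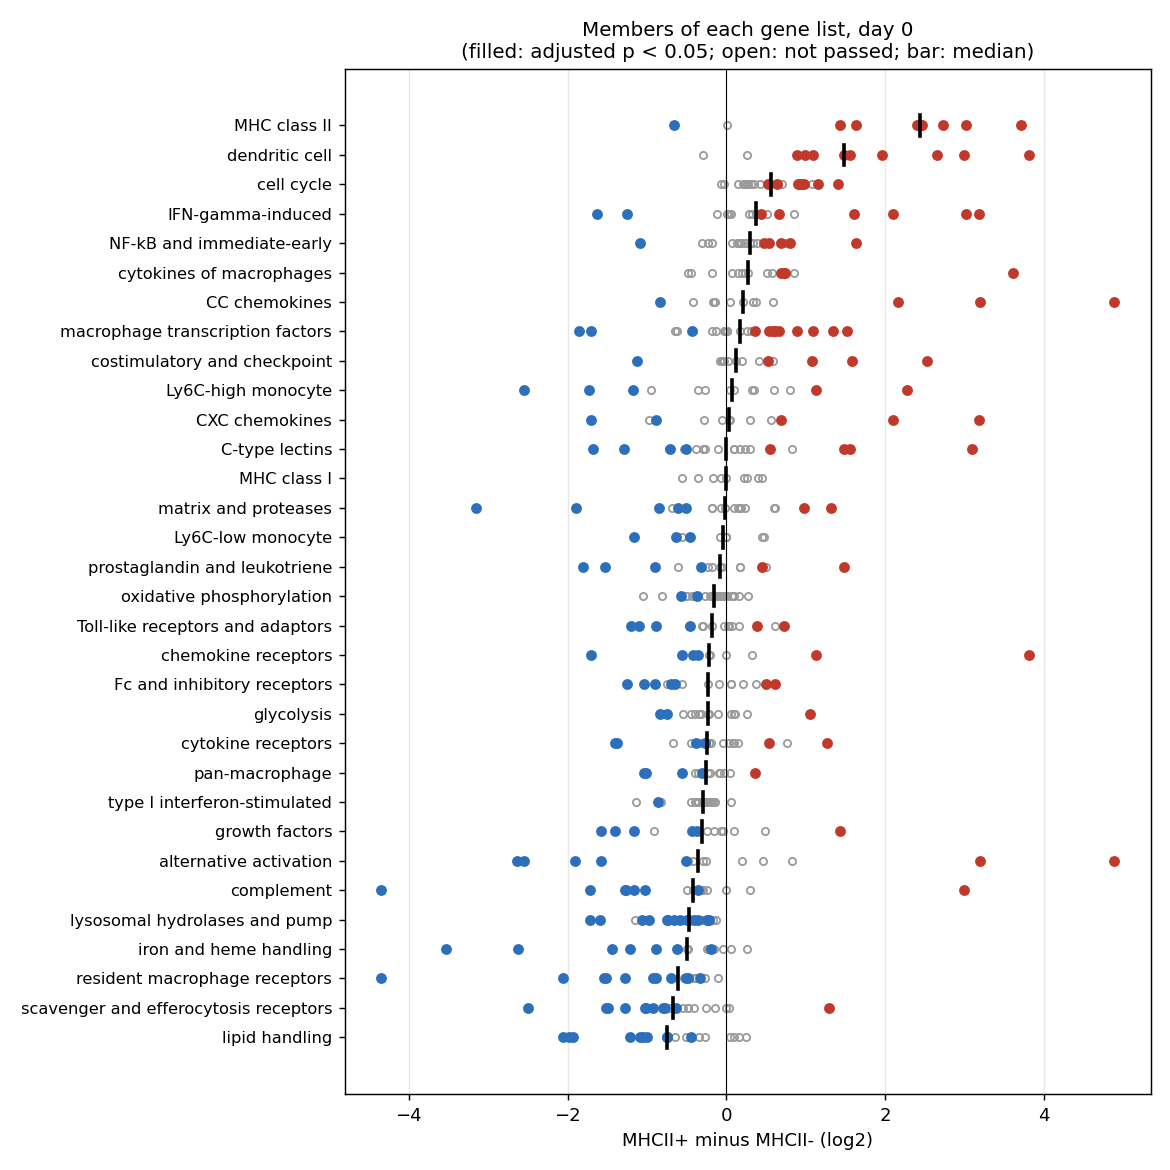
Difference between the subsets (MHCII+ minus MHCII-, log2) for each tested member of 32 gene lists at day 0, ordered by the list median (black bar). Filled points passed (red higher, blue lower in MHCII+ cells), open grey points did not. Class II and dendritic cell genes lie at the top with medians of 2.43 and 1.48, and lipid handling, scavenger and resident receptor genes at the bottom with medians of -0.74, -0.67 and -0.61.

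The machinery that digests what is taken up was lower too. Of 21 tested genes for lysosomal hydrolases and the proton pump, 15 were lower and 0 higher, each of the 21 had a difference below 0, and the median was -0.48. The count of lower genes was 10 to 13 when any 1 array was left out. Ctsl, a cysteine protease, had 11.62 and 11.24 in MHCII+ cells, against 13.05 and 13.24 in MHCII- cells (-1.71 ± 0.14, adjusted p = 6.68e-11). Atp6v0d2, a subunit of the membrane sector of the pump, had 10.06 and 10.16 in MHCII+ cells and 11.34 and 12.07 in MHCII- cells (-1.59 ± 0.15, adjusted p = 6.22e-10). Atp6v1a, the catalytic subunit, had 10.84 and 11.02 in MHCII+ cells and 11.82 and 12.16 in MHCII- cells (-1.06 ± 0.13, adjusted p = 2.10e-07). Lgmn, an asparaginyl endopeptidase, had 13.13 and 13.08 in MHCII+ cells and 13.65 and 13.55 in MHCII- cells (-0.49 ± 0.06, adjusted p = 3.42e-08). These 4 genes were named for their small p-values within the list, so the gap between their groups is no further support.

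Many lysosomal promoters carry the CLEAR element, bound by TFEB and its relatives, the family to which Tfec belongs. RefSeq promoters on GRCm38.p6 were searched for its core, TCACGTG, on both strands, and 3 that hold it more than once are shown with each match in capitals. Lamp1, a protein of the lysosomal membrane, lies at chr8:13158911-13159210 on the plus strand, Ctsd, an aspartyl protease, at chr7:142387778-142388077 on the minus strand, and Atp6v1a at chr16:44139210-44139509 on the minus strand.
Lamp1: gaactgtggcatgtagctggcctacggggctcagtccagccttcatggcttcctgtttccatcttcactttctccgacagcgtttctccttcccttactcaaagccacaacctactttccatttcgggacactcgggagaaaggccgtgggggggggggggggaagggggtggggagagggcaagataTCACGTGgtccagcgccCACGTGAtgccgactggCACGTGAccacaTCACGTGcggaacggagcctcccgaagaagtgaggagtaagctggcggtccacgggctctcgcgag
Ctsd: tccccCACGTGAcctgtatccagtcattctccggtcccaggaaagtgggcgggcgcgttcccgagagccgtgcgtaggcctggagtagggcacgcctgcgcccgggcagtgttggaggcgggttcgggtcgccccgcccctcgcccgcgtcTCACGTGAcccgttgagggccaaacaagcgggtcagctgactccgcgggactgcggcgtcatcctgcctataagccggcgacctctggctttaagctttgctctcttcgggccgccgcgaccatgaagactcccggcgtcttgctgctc
Atp6v1a: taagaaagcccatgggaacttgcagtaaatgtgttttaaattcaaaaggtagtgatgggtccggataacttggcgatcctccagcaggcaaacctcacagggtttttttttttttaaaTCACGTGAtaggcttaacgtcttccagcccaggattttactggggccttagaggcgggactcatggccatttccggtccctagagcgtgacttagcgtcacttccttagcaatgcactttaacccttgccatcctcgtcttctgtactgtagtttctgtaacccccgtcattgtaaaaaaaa
Where the run reads TCACGTGA, a match on each strand overlaps. The motif was in a promoter of 4.29% of 27025 mouse genes and of 6 of the 17 tested lysosomal members with a promoter sequence. The 6 were Ctsa, Ctsd, Lamp1, Lgmn, Gla and Atp6v1a, and all 6 were among the 13 such members that passed as lower. Ctsa, a protective protein of lysosomal enzymes, lost its call without either MHCII+ array or MHCII- replicate 2. Ctsd had 12.81 and 12.74 in MHCII+ cells, against 13.71 and 13.78 in MHCII- cells (-0.97 ± 0.21, adjusted p = 0.00102), and Lamp1 had 12.80 and 12.81 in MHCII+ cells and 13.14 and 13.18 in MHCII- cells (-0.35 ± 0.07, adjusted p = 1.93e-04). No call on a factor follows from these letters.

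Lipid and iron genes moved in the same direction. Of 19 genes of lipid handling 11 were lower and 0 higher (median -0.74), with 8 to 11 lower when any 1 array was left out. Gpnmb, a membrane glycoprotein of lipid-laden macrophages, had 12.36 and 12.17 in MHCII+ cells, against 13.47 and 13.48 in MHCII- cells (-1.21 ± 0.12, adjusted p = 8.86e-10). Trem2, a lipid-sensing receptor, had 11.92 and 11.39 in MHCII+ cells and 12.75 and 12.66 in MHCII- cells (-1.05 ± 0.14, adjusted p = 9.77e-07). Fabp5, a fatty acid carrier, had 10.67 and 9.77 in MHCII+ cells and 12.11 and 12.30 in MHCII- cells (-1.99 ± 0.35). Abca1, the cholesterol exporter, was lower by 1.09 (-1.09 ± 0.16) and the tetraspanin gene Cd63 by 1.93 (-1.93 ± 0.30). Among 17 iron and heme genes 7 were lower and 0 higher (median -0.50), with 5 to 8 lower when any 1 array was left out. Slc40a1, which encodes the iron exporter ferroportin, had 8.04 and 7.68 in MHCII+ cells and 10.51 and 10.45 in MHCII- cells (-2.62 ± 0.45, adjusted p = 5.07e-05). Tfrc, the transferrin receptor, had 9.34 and 8.68 in MHCII+ cells and 10.69 and 10.22 in MHCII- cells (-1.44 ± 0.27, adjusted p = 1.98e-04). Ncoa4, which delivers ferritin for breakdown, had -0.88 ± 0.12. Another member, Lcn2, is a neutrophil gene and is given with those genes.

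Further lower genes encode enzymes and surface proteins. Enpep, an aminopeptidase that cleaves angiotensin, had 8.62 and 8.45 in MHCII+ cells, against 10.74 and 11.20 in MHCII- cells (-2.44 ± 0.35, adjusted p = 3.50e-06). Rnf128, an E3 ubiquitin ligase, had 7.25 and 7.75 in MHCII+ cells and 9.57 and 10.12 in MHCII- cells (-2.34 ± 0.23, adjusted p = 2.60e-09). Cd109, a co-receptor of TGF-beta signalling, had 8.02 and 7.46 in MHCII+ cells and 9.92 and 9.87 in MHCII- cells (-2.16 ± 0.27, adjusted p = 3.59e-07). Mctp2, which encodes a membrane protein with C2 domains, had 6.04 and 5.83 in MHCII+ cells and 8.63 and 8.22 in MHCII- cells (-2.49 ± 0.26). None of these 4 calls ended when any 1 array was left out. Of 14 growth factor genes 5 were lower and 1 higher, and the other 8 did not pass (median -0.31). Over all genes tested, 10.6% were lower and 8.44% higher. Hgf, a mitogen of muscle stem cells, had 8.40 and 8.16 in MHCII+ cells and 9.58 and 10.13 in MHCII- cells (-1.57 ± 0.22), and Pdgfc had -1.17 ± 0.17, Gdf3 -1.40 ± 0.21 and Grn, which encodes progranulin, -0.37 ± 0.09. Pdgfb was the member that was higher, with 10.19 and 9.79 in MHCII+ cells and 8.70 and 8.41 in MHCII- cells (1.43 ± 0.29, adjusted p = 5.08e-04). Igf1, a growth factor for regenerating fibres, had -0.44 ± 0.14, and its call ended without MHCII+ replicate 2 or either MHCII- array.

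The genes often used to mark alternative activation did not move as a block. The counts below stand beside 8.44% of all genes higher and 10.6% lower. Of 14 tested, 2 were higher and 5 lower (median -0.36), and the 2 higher were Ccl17 and Ccl22. Arg2, an arginase, had 7.96 and 8.78 in MHCII+ cells, against 10.31 and 10.25 in MHCII- cells (-1.91 ± 0.29, adjusted p = 7.56e-06). Arg1 had 7.22 and 7.99 in MHCII+ cells and 9.31 and 11.17 in MHCII- cells (-2.64 ± 0.61, adjusted p = 0.00205), and its difference was -1.70 without MHCII- replicate 2, where it did not pass (adjusted p = 0.125). Chil3, a chitinase-like protein, had 6.08 and 5.53 in MHCII+ cells and 8.44 and 8.26 in MHCII- cells (-2.55 ± 0.55, adjusted p = 9.04e-04). Only 2 of the list were lower without MHCII- replicate 2 and 3 without MHCII+ replicate 2. Eicosanoid genes gave 2 higher and 4 lower of 15 (median -0.07), and 1 higher with 2 or 3 lower when any 1 array was left out. Ltb4r1, the leukotriene B4 receptor, had 9.09 and 9.15 in MHCII+ cells and 7.66 and 7.62 in MHCII- cells (1.49 ± 0.19, adjusted p = 4.70e-07). Hpgds, which makes prostaglandin D2, had 10.19 and 9.33 in MHCII+ cells and 11.55 and 11.57 in MHCII- cells (-1.80 ± 0.24, adjusted p = 6.26e-07), and Ltc4s, which makes leukotriene C4, had -1.52 ± 0.34. In the matrix and protease list 2 of 19 were higher and 5 lower (median -0.02). Mmp12, the macrophage elastase, had 10.29 and 10.81 in MHCII+ cells and 9.41 and 9.04 in MHCII- cells (1.32 ± 0.25), while Mmp27 had -1.89 ± 0.25 and Mmp8, also a neutrophil collagenase, -3.15 ± 0.32.

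Pattern recognition and immune receptor lists held calls in both directions, where 8.44% of all genes were higher and 10.6% lower. Of 20 C-type lectins 4 were higher and 4 lower (median -0.01), with 1 lower without MHCII+ replicate 2 and 2 without MHCII- replicate 2. Clec4b1, a lectin of the Clec4 cluster, had 9.14 and 8.64 in MHCII+ cells, against 5.75 and 5.84 in MHCII- cells (3.10 ± 0.45, adjusted p = 4.32e-06). Cd209a, a relative of human DC-SIGN, had 13.35 and 13.34 in MHCII+ cells and 11.71 and 12.03 in MHCII- cells (1.48 ± 0.34, adjusted p = 0.00194). Clec4d, a receptor for microbial glycolipid, was lower, with 9.06 and 9.81 in MHCII+ cells and 10.79 and 11.44 in MHCII- cells (-1.68 ± 0.25, adjusted p = 5.27e-06). Toll-like receptors and adaptors gave 2 higher and 4 lower of 17 (median -0.18), with 0 to 2 higher and 3 to 7 lower when any 1 array was left out. Tlr13, a sensor of bacterial ribosomal RNA, had 11.17 and 10.61 in MHCII+ cells and 12.26 and 11.91 in MHCII- cells (-1.19 ± 0.12, adjusted p = 1.64e-09), and Tlr7 had -0.89 ± 0.15 and Tlr4 -1.10 ± 0.25. Fc and inhibitory receptors gave 2 higher and 5 lower of 15 (median -0.23), but 1 and 1 without MHCII+ replicate 2 and 0 and 2 without MHCII- replicate 1. Cd300lf, an inhibitory receptor, had 7.94 and 7.24 in MHCII+ cells and 9.18 and 8.51 in MHCII- cells (-1.26 ± 0.22). Costimulatory genes gave 4 higher and 1 lower of 15 (median 0.13), and the same counts with medians of 0.13 to 0.20 when any 1 array was left out. Slamf8 had 9.99 and 10.12 in MHCII+ cells and 7.59 and 7.47 in MHCII- cells (2.52 ± 0.33), Tnfsf9, the ligand of 4-1BB, had 1.58 ± 0.23, Icosl, the ligand of ICOS, had 1.08 ± 0.17 and Havcr2, which encodes TIM-3, had -1.12 ± 0.20.

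Monocyte and general macrophage genes had calls in both directions, against 19.0% of all genes called. Of 14 genes of Ly6C-high monocytes 2 were higher and 3 lower (median 0.07), with 1 or 2 higher and 2 or 3 lower when any 1 array was left out. Lyz1, a lysozyme, had 13.88 and 14.09 in MHCII+ cells, against 11.44 and 11.98 in MHCII- cells (2.27 ± 0.20, adjusted p = 1.01e-10). Of 10 genes of Ly6C-low monocytes 0 were higher and 3 lower (median -0.04), among them Cd36 (-0.63 ± 0.13) and Treml4 (-1.16 ± 0.26). Of 14 pan-macrophage genes 1 was higher and 4 lower (median -0.26), with 3 to 5 lower when any 1 array was left out. Adgre1 was lower (-0.56 ± 0.11, adjusted p = 5.19e-04), as was Cd68 (-0.31 ± 0.07). The summed list was 90290 and 87340 in MHCII+ cells and 102400 and 101000 in MHCII- cells.

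Interferon genes were counted in 2 lists, whose difference was not tested, beside 8.44% of all genes higher and 10.6% lower. Of 17 genes induced by interferon gamma, 6 were higher and 2 lower (median 0.37), with 5 to 7 higher and 0 to 2 lower when any 1 array was left out and a median of 0.07 without MHCII- replicate 2. Gbp2b, a guanylate-binding protein, had 8.75 and 8.65 in MHCII+ cells, against 7.30 and 6.87 in MHCII- cells (1.61 ± 0.25, adjusted p = 1.01e-05), and Socs1, a feedback inhibitor, had 0.66 ± 0.13. Gm4951, an interferon-induced GTPase gene, was lower, with 8.74 and 7.73 in MHCII+ cells and 10.09 and 9.65 in MHCII- cells (-1.63 ± 0.32). It was -1.12 without MHCII+ replicate 2, where it did not pass (adjusted p = 0.0544). The type I interferon list gave 0 higher and 1 lower of 21 (median -0.30), and that count rested on single arrays. Without MHCII- replicate 2 it was 13 lower with a median of -0.80, without MHCII+ replicate 1 it was 4 lower, and without MHCII- replicate 1 the median was 0.19 and 0 passed. Without MHCII+ replicate 2, 0 passed as well (median -0.08). Replicate 1 was the higher array of both subsets: the summed list was 24530 and 16120 in MHCII+ cells and 37110 and 18250 in MHCII- cells. Ifit2, an RNA-binding antiviral gene, had 8.52 and 7.26 in MHCII+ cells and 10.29 and 7.75 in MHCII- cells, so the groups overlapped (-1.13 ± 0.46, adjusted p = 0.0804).

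Some proliferation genes were higher in MHCII+ cells, a count that rested on single arrays. Counts here stand beside 8.44% of all genes higher and 10.6% lower. Of 25 cell cycle genes 9 were higher and 0 lower, and 23 of 25 had a difference above 0 (median 0.56). Without MHCII+ replicate 2 the count was 0 with a median of 0.30, without MHCII- replicate 1 it was 5, without MHCII- replicate 2 it was 3 and without MHCII+ replicate 1 it was 11. Foxm1, a transcription factor of mitotic genes, had 8.03 and 8.48 in MHCII+ cells, against 7.37 and 7.34 in MHCII- cells (0.90 ± 0.19, adjusted p = 6.48e-04), and Aurkb, a mitotic kinase, had 9.71 and 10.29 in MHCII+ cells and 9.09 and 9.05 in MHCII- cells (0.93 ± 0.22). Replicate 2 was the higher MHCII+ array in both. Each MHCII+ array lay above each MHCII- array in both genes. They were named for small p-values within the list, so this gap is no further support. The NF-kB and immediate-early list gave 5 higher and 1 lower of 25 (median 0.30), but 1 higher without MHCII+ replicate 2 and 2 without MHCII- replicate 1. Nr4a3, an orphan nuclear receptor, had 11.31 and 11.94 in MHCII+ cells and 9.47 and 10.51 in MHCII- cells (1.64 ± 0.43, adjusted p = 0.00654), and did not pass without MHCII+ replicate 2 or MHCII- replicate 1. In glycolysis 1 of 15 was higher and 2 lower (median -0.23), with Pfkp at 1.05 ± 0.20 and no lower member without MHCII+ replicate 2. In oxidative phosphorylation 0 of 25 were higher and 2 lower (median -0.16), with 0 passed without MHCII+ replicate 2 or MHCII- replicate 2.

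Markers of other cells bear on the lower genes above all. In the neutrophil list 9 of 10 tested genes were lower with all arrays (median -2.37), and 3 were lower without MHCII- replicate 1 (median -0.49). Cxcr2, the chemokine receptor of neutrophils, had 4.87 and 4.85 in MHCII+ cells, against 10.93 and 4.88 in MHCII- cells. It was -0.02 without MHCII- replicate 1 (adjusted p = 0.964). S100a8, a subunit of calprotectin, had 5.93 and 5.99 in MHCII+ cells and 11.54 and 7.17 in MHCII- cells, and S100a9, its partner, 6.57 and 6.45 in MHCII+ cells and 11.49 and 6.98 in MHCII- cells. Without that array S100a8 had -1.21 and S100a9 -0.47, and neither passed; without MHCII- replicate 2 these differences grew to -5.58 and -4.98, and that of Cxcr2 to -6.07. Ngp, a granule protein, had 5.04 and 5.22 in MHCII+ cells and 11.23 and 8.24 in MHCII- cells, and it passed with and without MHCII- replicate 1 (-4.61 and -3.11). Lcn2, the siderophore-binding lipocalin, had 6.82 and 6.84 in MHCII+ cells and 12.09 and 8.63 in MHCII- cells, and was -1.80 without that array (adjusted p = 0.0356). Mmp8 had 6.90 and 6.68 in MHCII+ cells and 10.38 and 9.50 in MHCII- cells, and was -2.71 without it. Neutrophil transcripts were thus highest in MHCII- replicate 1. Ngp, Lcn2, Mmp8, S100a8 and S100a9 were also higher in MHCII- replicate 2 than in either MHCII+ array. The summed list was 3268 in MHCII- replicate 2, against 1831 and 1706 in the MHCII+ arrays, which ranked 44 and 45 of the 45 arrays. Leaving out MHCII- replicate 1 therefore does not remove the whole neutrophil difference. The differences of Vsig4, Colec12, Ctsl and Gpnmb held without that array.

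**Figure D4:**
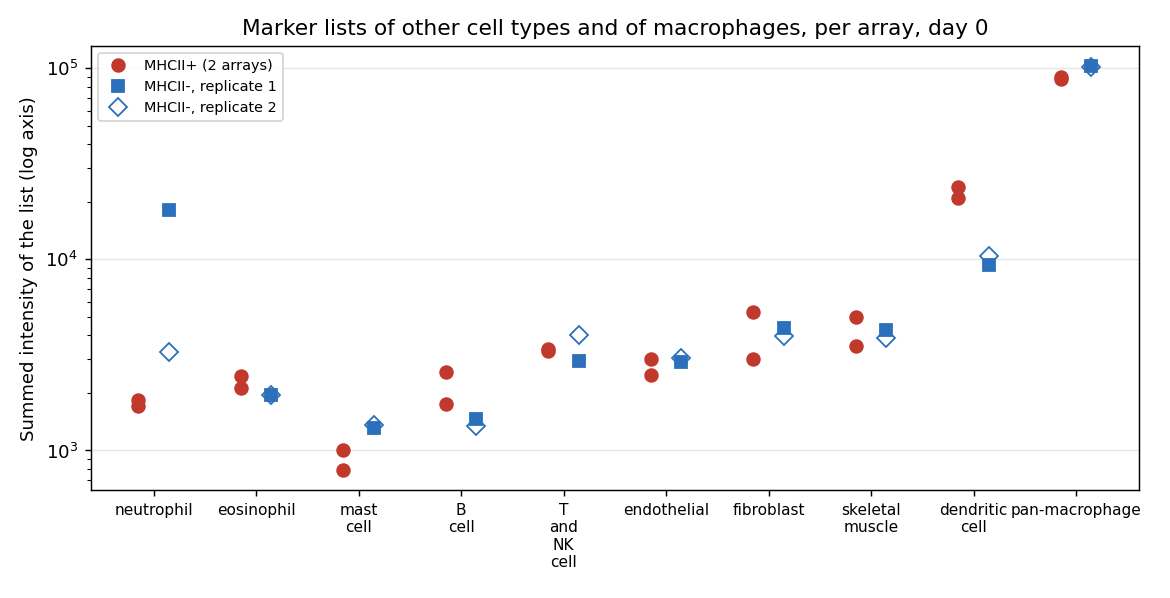
Summed intensity (log axis) of the measured members of marker lists in each of the 4 day 0 arrays, MHCII+ left (red dots) and MHCII- right (filled square, replicate 1; open diamond, replicate 2). MHCII- replicate 1 stands at 18040 for neutrophil genes against 3268 in replicate 2, while the dendritic cell list is higher in both MHCII+ arrays.

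Genes of other lineages were counted next, beside 8.44% of all genes higher and 10.6% lower. Of 4 tested eosinophil genes 1 was higher and 2 lower, and Prg2, Epx and Il5ra lay below the filter in spite of a gate that lists no SiglecF step; Siglecf had 7.90 and 8.00 in MHCII+ cells and 7.87 and 7.57 in MHCII- cells (0.22 ± 0.15, adjusted p = 0.314). Ccr3, the eotaxin receptor, had 6.61 and 6.73 in MHCII+ cells and 8.56 and 8.20 in MHCII- cells (-1.71 ± 0.17, adjusted p = 2.61e-09). The summed eosinophil list was 2118 to 2437 in MHCII+ cells and 1939 to 1961 in MHCII- cells. Of 3 tested B cell genes 2 were higher (Fcmr by 0.61 and Cd79b by 0.64), both lost without MHCII+ replicate 1 or MHCII- replicate 1 and Cd79b also without MHCII- replicate 2, and Ms4a1, which encodes CD20, was not tested, since no group mean reached the filter. It had 7.77 and 5.97 in MHCII+ cells and 5.37 and 5.30 in MHCII- cells, so that MHCII+ replicate 1 lay above the filter level and above the other 3 arrays. The summed B cell list was 1745 to 2560 in MHCII+ cells and 1348 to 1459 in MHCII- cells. Of 2 tested mast cell genes, Hdc, the histamine-forming enzyme, was lower (7.46 and 7.53 in MHCII+ cells, 9.51 and 8.23 in MHCII- cells; -1.38 ± 0.22), and -0.74 without MHCII- replicate 1. Of 8 endothelial genes 0 were higher and 1 lower, and of 10 fibroblast genes 0 passed with all arrays. The summed fibroblast list was 5325 and 3010 in MHCII+ cells and 4351 and 3961 in MHCII- cells, so the groups overlapped. MHCII+ replicate 1 had the highest fibroblast, muscle and B cell sums of the 4 arrays. In the skeletal muscle list 2 of 12 were higher. Pax7, the transcription factor of muscle stem cells, had 9.06 and 8.51 in MHCII+ cells and 7.85 and 7.72 in MHCII- cells (1.00 ± 0.23), and Des, which encodes desmin, had 8.86 and 8.12 in MHCII+ cells and 7.28 and 7.11 in MHCII- cells (1.29 ± 0.30). Both calls ended without MHCII+ replicate 1, and the summed muscle list overlapped between the groups (5000 and 3508 in MHCII+ cells, 4250 and 3868 in MHCII- cells). The part of these cells in the results was not tested.

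The difference between the subsets was then set against that at days 1, 4 and 7 in DTR- mice, as the day 0 difference minus the other. The 3 contrasts share the day 0 arrays. Set against day 1, 516 genes passed (4.66%; limma), 194 above 0 (1.75%) and 322 below; set against day 4, 318 (2.87%), 214 above and 104 below; set against day 7, 704 (6.36%), 481 above and 223 below. Quantile normalization gave 58.2% above 0 against day 7 in place of 68.3%. The day 7 count was 215 without day 0 MHCII+ replicate 2, 416 without MHCII- replicate 1 and 448 without MHCII- replicate 2. Leaving out day 0 MHCII+ replicate 2 gave 274 against day 1 and 117 against day 4, and leaving out MHCII- replicate 1 gave 205 against day 4. Age differed between day 0 (10 weeks) and all 3 other days (8 weeks), the gate between day 0 and days 1 and 4, and the tag 24hrDT between day 0 and days 1 and 7; these cannot be told apart from the day. Class II was high in MHCII+ cells at each day, but MHCII- cells differed: H2-Aa averaged 13.88 in MHCII+ and 11.43 in MHCII- cells at day 0, and 13.60 and 7.94 at day 1. Its difference was 3.21 log2 units smaller at day 0 (-3.21 ± 0.32, adjusted p = 3.39e-08).

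**Figure D5:**
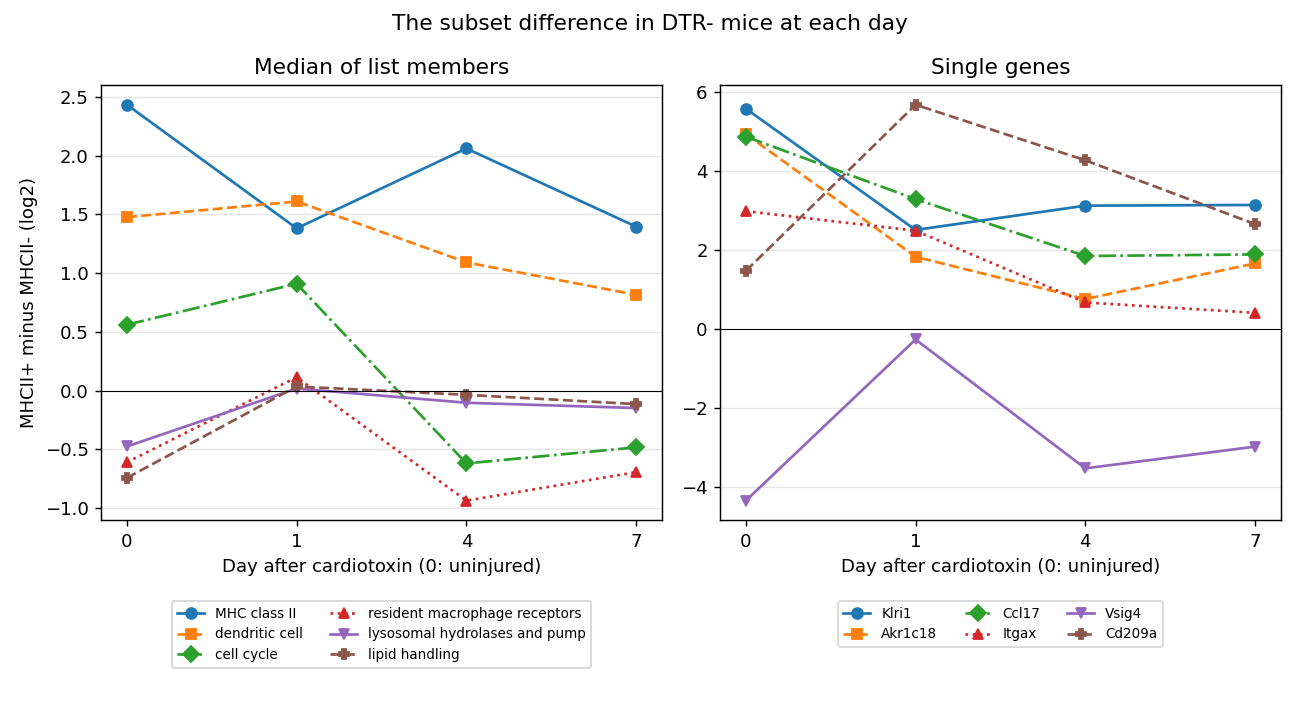
Difference between the subsets (MHCII+ minus MHCII-, log2) at days 0, 1, 4 and 7 in DTR- mice, days spaced evenly. The left panel gives medians over the tested members of 6 lists and the right panel 6 genes; points are differences of group means of 2 to 4 arrays. The lysosomal median is -0.48 at day 0 and -0.15 to 0.02 later, and the cell cycle median is above 0 at days 0 and 1 and below 0 at days 4 and 7.

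Several of the genes that lead in MHCII+ cells of resting muscle had a smaller lead after injury. The genes named here were picked for large values of these contrasts, and some also for a large day 0 difference from the same arrays. A smaller lead at other days is therefore favoured by the choice. Klri1 averaged 10.98 in MHCII+ and 5.39 in MHCII- cells at day 0, against 8.23 and 5.71 at day 1, 8.58 and 5.45 at day 4 and 8.95 and 5.80 at day 7. Its difference was larger at day 0 by 3.07 ± 0.34, 2.46 ± 0.34 and 2.44 ± 0.31 than at days 1, 4 and 7 (adjusted p = 2.89e-07, 3.55e-05 and 3.51e-06). Akr1c18 averaged 11.18 in MHCII+ cells at day 0, against 8.75, 6.69 and 7.53 at days 1, 4 and 7, and its difference was larger at day 0 by 3.11 to 4.18. Ccl17 averaged 11.91 in MHCII+ cells at day 0, against 9.22 at day 4 and 9.44 at day 7, and its difference was larger at day 0 by 3.02 ± 0.42 and 2.98 ± 0.37. Itgax was a case of its own: MHCII+ cells had 11.14 at day 0 and 11.86 at day 7, while MHCII- cells had 8.15 and 11.45 (2.58 ± 0.23, adjusted p = 3.81e-09). Serpinb10, a serpin gene, had 10.38 in MHCII+ and 8.13 in MHCII- cells at day 0, and the order was turned at day 1, with 9.70 and 11.05 (3.62 ± 0.61, adjusted p = 2.37e-04). Hepacam2 and Gpr141b had differences larger at day 0 than at day 1 by 2.72 ± 0.30 and 3.03 ± 0.31, and Ndnf by 2.69 ± 0.35.

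In the other direction, genes that separate the subsets strongly at day 1 did so weakly at day 0. They too were picked for large values of these contrasts, so the size of the change is no further support. Retnla, a resistin-like gene of alternative activation, averaged 13.50 in MHCII+ and 13.04 in MHCII- cells at day 0, against 12.41 and 7.03 at day 1 (-4.92 ± 0.45, adjusted p = 6.33e-09). Cd209a averaged 13.34 and 11.87 at day 0, and 12.36 and 6.67 at day 1 (-4.21 ± 0.48, adjusted p = 3.85e-07). Cd209d, a lectin of the same cluster, averaged 12.90 and 13.01 at day 0, and 9.37 and 6.36 at day 1 (-3.11 ± 0.56, adjusted p = 4.57e-04). These 3 genes were high in both subsets of resting muscle and low in MHCII- cells at day 1. Vsig4 differed otherwise: it averaged 7.23 in MHCII+ and 11.58 in MHCII- cells at day 0, and 5.60 and 5.86 at day 1 (-4.08 ± 0.45, adjusted p = 1.98e-07). Against day 4, Mctp2 had -2.26 ± 0.36 and Arg2 -2.17 ± 0.41; Arg2 averaged 8.37 in MHCII+ and 10.28 in MHCII- cells at day 0, and 9.59 and 9.33 at day 4.

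Gene lists were set against the other days by their counts. Of 21 lysosomal genes the difference was further below 0 at day 0 than at day 1 in 9, than at day 4 in 5 and than at day 7 in 7, with 0 the other way; 2.91%, 0.939% and 2.01% of all genes passed below 0 in these contrasts. Their median was -0.48 at day 0, against 0.02, -0.10 and -0.15 at days 1, 4 and 7. Of 19 lipid genes 10, 4 and 5 passed below 0, and 0, 1 and 0 above 0, with medians of -0.74 at day 0 and 0.03, -0.04 and -0.12 at days 1, 4 and 7. For 18 resident receptors 9 passed below 0 against day 1, 1 against day 4 and 3 against day 7, and 0, 1 and 0 passed above 0, with medians of -0.61, 0.11, -0.94 and -0.69 at days 0, 1, 4 and 7. Cell cycle genes had medians of 0.56 and 0.91 at days 0 and 1, and -0.62 and -0.48 at days 4 and 7. Of 25, 1 passed below 0 against day 1, and 8 passed above 0 against day 4 and 12 against day 7, where 1.93% and 4.34% of all genes did; these contrasts hold day 0 MHCII+ replicate 2, without which no cell cycle gene passed at day 0.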

How the data were processed

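Expression was measured in 4 day 0 samples, 2 per subset, of a series of 45 arrays. Per the submitters' processing notes, the authors used Affymetrix Power Tools and RMA, with no version given in the sources used here. The deposited values are intensities on a linear scale, 1 per probe set and array, running from 9.56 to 23060 on the 4 arrays. The deposited intensities were converted here to log2. Of 24922 probe sets, 21425 had 1 gene symbol, 1399 several and 2098 none in the probe annotation; the brightest probe set of a gene was kept, which gave 19752 genes. Genes were tested when their mean reached the median of all values (log2 7.57) in at least 1 of 18 groups, which left 11074.

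Tests used limma 3.58.1 in R 4.3.3. All 45 arrays entered 1 fit with a mean for each group (27 residual degrees of freedom), an intensity trend and Benjamini-Hochberg adjustment per comparison; the threshold was an adjusted p of 0.05. The residual SD (root mean square) was 0.194 in the day 0 arrays and 0.194 over all. The fit was tested on simulated data. Groups came from the sample titles; a marker entry in the labels gives MHCII- also for MHCII+ titles of other days, and the titles were used. Named genes were the 15 largest per direction that passed with no overlap (predicted genes left out), the 6 smallest p-values within each of 40 lists, up to 6 per direction for each contrast between days, and members of lists of other cells; a few are said to be chosen later. The members, lists and rules were chosen with earlier results of these data known. Lists are described by counts and medians only. Replicate numbers came from the titles, and the replicate 1 minus 2 deviations of the subsets correlated at 0.242, over 2 pairs, so samples were not treated as paired. The number of arrays limits the precision. Alternatives covered the filter, probe set choice, normalization, pseudocount, trend, array weights, arrays fitted, a replicate block and each array left out. Figures used matplotlib 3.10.9 with pandas 2.3.3 and numpy 2.4.6 under Python 3.11.15.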

Additional observations from a re-analysis of the deposited data

Results flagged for a closer look

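The difference between MHCII+ and MHCII- macrophages at day 0 itself differed from that at other days (a test of the difference of differences in limma) in 516 genes against day 1, 318 against day 4 and 704 against day 7. Values below are the day 0 difference minus the other on the log2 scale. Genes above 0 against day 1 were Serpinb10 (3.62), Akr1c18 (3.11), Klri1 (3.07), Gpr141b (3.03), Hepacam2 (2.72) and Ndnf (2.69). Those below 0 were Retnla (-4.92), Ngp (-4.51), Cd209a (-4.21), Vsig4 (-4.08), H2-Aa (-3.21) and Cd209d (-3.11). Against day 4, Akr1c18 (4.18), Ccl17 (3.02), Serpinb10 (2.88), Aldh1a2 (2.73), Cd226 (2.71) and Klri1 (2.46) were above 0, and Ngp (-4.69), S100a8 (-3.54), Cd209a (-2.80), Mctp2 (-2.26), Arg2 (-2.17) and Retnlg (-2.11) below. Against day 7, Akr1c18 (3.28), Ccl17 (2.98), Itgax (2.58), Gprc5a (2.47), Klri1 (2.44) and Serpinb10 (2.36) were above 0, and Ngp (-5.71), S100a8 (-3.99), Lcn2 (-3.78), S100a9 (-3.26), Retnlg (-2.28) and Ly6g (-2.13) below.

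Neutrophil genes led the second list against days 4 and 7, and they were highest in day 0 MHCII- replicate 1. Without that array Ngp (-3.01 against day 1 and -3.19 against day 4), S100a8 and Retnlg against day 4 (-1.35 and -0.68) and Lcn2, S100a9 and Ly6g against day 7 (-2.05, -1.01 and -0.48) did not pass, and S100a8 (-1.81) and Retnlg (-0.86) against day 7 moved by over 1.5 times. S100a8 and Retnlg against day 4 also failed without either day 0 MHCII+ array or any 1 of the 4 day 4 arrays, Ngp against day 4 without day 4 MHCII+ replicate 2 or MHCII- replicate 1, and S100a9 and Ly6g against day 7 without day 0 MHCII+ replicate 2. Serpinb10 lost its call against day 4 without day 4 MHCII- replicate 1 (highest adjusted p 0.124) and against day 7 without day 0 MHCII+ replicate 2 (0.0534). The other genes named here passed in each fit that left out 1 array.

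Single samples stood apart in the day 7 MHCII+ group of 4 arrays that serves the comparison. For each gene looked at, chance alone sets 1 in 20 such groups apart, and several genes were looked at. Replicate 3 had 9.12 for Ngp, 9.16 for Lcn2 and 8.36 for S100a9 (log2 intensity), where the other 3 arrays had 4.88 to 5.12, 6.65 to 6.89 and 6.31 to 6.45. These are neutrophil genes of 1 array, so they are not separate cases. Replicate 4 had 9.20 for Ccl17, where the other 3 had 9.49 to 9.55.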

How the results depend on the processing

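With each day 0 array left out in turn, the count of genes that passed between the subsets was 947 to 1845 (2104 with all 4). Among the 224 named genes and the genes named between days, no call changed sign in the alternatives run for each. The day 0 count stayed within 1.5 times under the other filters, probe set rule, normalizations, pseudocount and trend. It also did so with array weights (3138), whose iteration stopped before it converged, and with the compared arrays alone (1657). It did not without MHCII+ replicate 2 or without either MHCII- array. Labels number replicates 1 and 2 in both subsets; with this replicate number as a block 2111 genes passed, and the numbers are not known to mark shared mice. For the day 0 difference minus the day 1 difference (516), array weights gave 2194, the compared arrays alone 1222, and leaving out 1 array 274 to 642 (day 0) and 288 to 331 (day 1, added after seeing the data). Against day 4 (318) these were 633, 255, 117 to 355 and 121 to 185, and against day 7 (704) they were 1200, 270, 215 to 823 and 514 to 1028. Of 224 named genes, 42 lost their call without day 0 MHCII+ replicate 2, 31 without MHCII- replicate 1, 29 without MHCII- replicate 2 and 19 without MHCII+ replicate 1. A cause of these shifts was not tested. With 2 arrays a group, differences under about 2-fold rest on few values.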
